A study of Mus musculus with 32 samples.

Results

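The genes described here are 7 channel genes of neurons, taken by name from the deposited table of read counts of mouse spinal cord: the sodium channel genes Scn1a, Scn2a, Scn8a and Scn4b and the potassium channel genes Kcna1, Kcna2 and Kcnc1. They are 7 of the 42524 genes in the table, and all 7 were counted in every mouse. RNA of 32 spinal cord samples was sequenced, 4 in each of 8 groups. Each sample is called a mouse here, although the labels number the replicates without naming animals. The groups were wildtype (WT) C57BL/6J littermates and mice carrying the human SOD1 transgene with the G93A mutation, a model of amyotrophic lateral sclerosis, each untreated or given the nitrone OKN-007 in the drinking water, and each labelled 90 or 155 days. The study's methods give the earlier age as 95 days. They do not say which cohort was sequenced. Mice were taken at 95 and 155 days in the cohorts given the higher of the study's doses, for which females alone were used. The transgene is human and has no row of its own in the mouse table, so the genotype labels could not be checked against it.

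Voltage-gated sodium channels open as a neuron depolarizes and carry the rising phase of the action potential. They consist of a large pore-forming alpha subunit and small beta subunits, and they are concentrated at the axon initial segment and the nodes of Ranvier. Voltage-gated potassium channels open a little later and repolarize the membrane: Kv1 channels sit beside the nodes, under the myelin, and damp repetitive firing, while Kv3 channels close quickly and allow trains of spikes at high rate. Spinal motor neurons and interneurons use both kinds.

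At 155 days, all 7 channel transcripts were lower in G93A than in WT spinal cord, in untreated and in OKN-007 treated mice alike, by between 25.1% and 49.1% in the untreated mice, where 18.2% of all genes tested were called lower in either treatment. All 6 caudal Hox genes, which mark lumbar and sacral cord, were called lower too, averaged over treatment, where 25.8% of all genes were. The level of cord taken cannot be separated from genotype here. At 90 days 0 of the 7 were called between the genotypes, as were 0% of all genes in either treatment, and OKN-007 gave 0 calls among the 7 and 0% of all genes in either genotype at either age, so these zeros are not particular to the channels. Genes used by neurons in general were lower too, 11 of 12 with a median of -0.50 on the log2 scale against -0.63 for the channels. Scaling the libraries to those 12 genes moves every gene up by about the same amount. On that scale Scn4b was still called lower in untreated mice, Kcna1 lay further below 0 but with a wide error and did not pass, and Scn2a, which had changed least, came to lie above 0. Averaged over treatment, Scn4b and Kcna1 were called lower and Scn2a higher, with Kcna1 and Scn2a close to the threshold. In untreated mice most genes tested were called on that scale, and Scn2a lay below the median of all genes.

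Levels are given in CPM, a gene's reads relative to all reads of its library, scaled between mice by edgeR's TMM factors. The libraries held from 19701722 to 30138257 counted reads. The lowest count of Scn1a in any mouse was 2941 and that of Scn2a was 1230. Kcna1, the least counted of the 7, had between 708 and 2799 reads per mouse, so that the spread between mice and not the sequencing depth set the precision. Differences were tested two-sided with edgeR's quasi-likelihood method, and a gene was called where its p, adjusted by the Benjamini-Hochberg method over all genes tested, was under 0.05.

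Scn1a, Scn2a and Scn8a encode alpha subunits. Scn1a encodes the alpha subunit found above all in inhibitory interneurons and also in motor neurons, Scn2a the one of early and unmyelinated axons, and Scn8a the main one of mature initial segments and nodes. The annotation (GENCODE M21 on GRCm38) places Scn1a on the minus strand at chr2:66270778-66440840 and Scn2a on the plus strand of the same chromosome at chr2:65620771-65767447. Scn8a lies on the plus strand at chr15:100869858-101045938. Reads were counted over exons. Only Scn1a overlapped another gene, Gm13630 on the opposite strand, with which it shares 0 exon bases and which had at most 25 counts in a mouse.

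At 155 days, Scn1a was counted at 352, 244, 336 and 213 CPM in the 4 untreated WT mice and at 189, 143, 132 and 200 CPM in the 4 untreated G93A mice. The OKN-007 treated mice had 269, 298, 260 and 301 CPM (WT) and 135, 154, 177 and 189 CPM (G93A). Every WT mouse lay above every G93A mouse within each treatment, although replicate 4 of the untreated WT group, at 213 CPM, came close to the highest G93A mouse. Scn1a was lower in G93A by 0.73 on the log2 scale in untreated mice (SE 0.155, adjusted p = 0.00101, edgeR's quasi-likelihood test, n = 4 per group). It was lower by 0.71 in treated mice (SE 0.155, adjusted p = 0.00116, same test).

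Scn2a changed least of the 7. At 155 days it stood at 80.8, 65.0, 79.9 and 79.5 CPM in untreated WT mice and at 53.8, 50.6, 52.6 and 63.9 CPM in untreated G93A mice. In the treated mice it stood at 77.5, 83.1, 78.2 and 88.6 CPM (WT) and at 52.9, 59.9, 60.4 and 58.1 CPM (G93A). The genotypes did not overlap in either treatment, but WT replicate 2 and G93A replicate 12 of the untreated mice were only about 1 CPM apart. Scn2a was lower in G93A by 0.42 on the log2 scale, or 25.1%, in untreated mice (SE 0.0826, adjusted p = 0.000554, edgeR's quasi-likelihood test, n = 4). It was lower by 0.43 on the log2 scale in treated mice (SE 0.0824, adjusted p = 0.000381, same test).

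Scn8a had 327, 238, 314 and 269 CPM in untreated WT mice at 155 days against 189, 161, 155 and 226 CPM in untreated G93A mice. Treated WT mice had 250, 327, 264 and 311 CPM and treated G93A mice 136, 153, 160 and 192 CPM. All G93A mice were below all WT mice of the same treatment. Scn8a was lower in G93A by 0.60 on the log2 scale in untreated mice (SE 0.130, adjusted p = 0.0012, edgeR's quasi-likelihood test, n = 4). It was lower by 0.77 in treated mice (SE 0.130, adjusted p = 0.000103, same test).

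Scn4b encodes a beta subunit that shapes the resurgent sodium current of fast-firing neurons. It lies on the plus strand at chr9:45138395-45154152. In untreated mice at 155 days it was counted at 424, 368, 399 and 342 CPM in WT and at 215, 165, 207 and 270 CPM in G93A mice. In treated mice the values were 347, 384, 335 and 391 CPM (WT) and 150, 175, 194 and 245 CPM (G93A). The groups were far apart, with the lowest untreated WT mouse above the highest untreated G93A mouse by more than the SD of either group (35.8 and 43.0 CPM). Scn4b was lower in G93A by 0.79 on the log2 scale in untreated mice (SE 0.139, adjusted p = 0.000191, edgeR's quasi-likelihood test, n = 4). It was lower by 0.86 in treated mice (SE 0.140, adjusted p = 6.9e-05, same test).

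Kcna1 and Kcna2 encode the Kv1 alpha subunits that assemble together beside the nodes of myelinated axons. Kcna1 lies on the minus strand at chr6:126640397-126646384 and Kcna2 on the plus strand at chr3:107101146-107115005. Kcna1 spread widely between mice. At 155 days it had 106, 64.5, 86.8 and 37.3 CPM in untreated WT mice (73.8 ± 29.7 CPM, mean ± SD) and 44.5, 31.6, 29.0 and 39.4 CPM in untreated G93A mice. WT replicate 4 lay below 2 of the G93A mice, and Kcna1 was the only one of the 7 whose untreated groups overlapped. It was lower in untreated G93A mice by 0.97 on the log2 scale (SE 0.238, adjusted p = 0.00305, edgeR's quasi-likelihood test, n = 4). Treated WT mice had 50.1, 67.4, 40.5 and 61.1 CPM and treated G93A mice 23.8, 26.8, 36.8 and 33.1 CPM. These groups did not overlap, and Kcna1 was lower in G93A by 0.79 there (SE 0.239, adjusted p = 0.0125, same test).

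Kcna2 had 460, 328, 431 and 378 CPM in untreated WT mice at 155 days and 241, 235, 235 and 310 CPM in untreated G93A mice. Treated WT mice had 379, 414, 388 and 415 CPM and treated G93A mice 203, 238, 229 and 271 CPM. Replicates 9, 10 and 11 of the untreated G93A mice were nearly equal, and replicate 12 stood above them without reaching the WT range. Kcna2 was lower in G93A by 0.60 on the log2 scale in untreated mice (SE 0.107, adjusted p = 0.000225, edgeR's quasi-likelihood test, n = 4). It was lower by 0.69 in treated mice (SE 0.107, adjusted p = 4.37e-05, same test).

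Kcnc1 encodes a Kv3 alpha subunit of fast-spiking neurons and lies on the plus strand at chr7:46396497-46438704. At 155 days it was counted at 229, 226, 237 and 207 CPM in untreated WT mice (SD 12.6 CPM) and at 155, 126, 104 and 177 CPM in untreated G93A mice. In treated mice the values were 190, 245, 174 and 237 CPM (WT) and 104, 128, 127 and 156 CPM (G93A). The genotypes did not overlap in either treatment. Kcnc1 was lower in G93A by 0.63 on the log2 scale in untreated mice (SE 0.147, adjusted p = 0.00218, edgeR's quasi-likelihood test, n = 4). It was lower by 0.64 in treated mice (SE 0.148, adjusted p = 0.0017, same test).

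**Figure D1:**
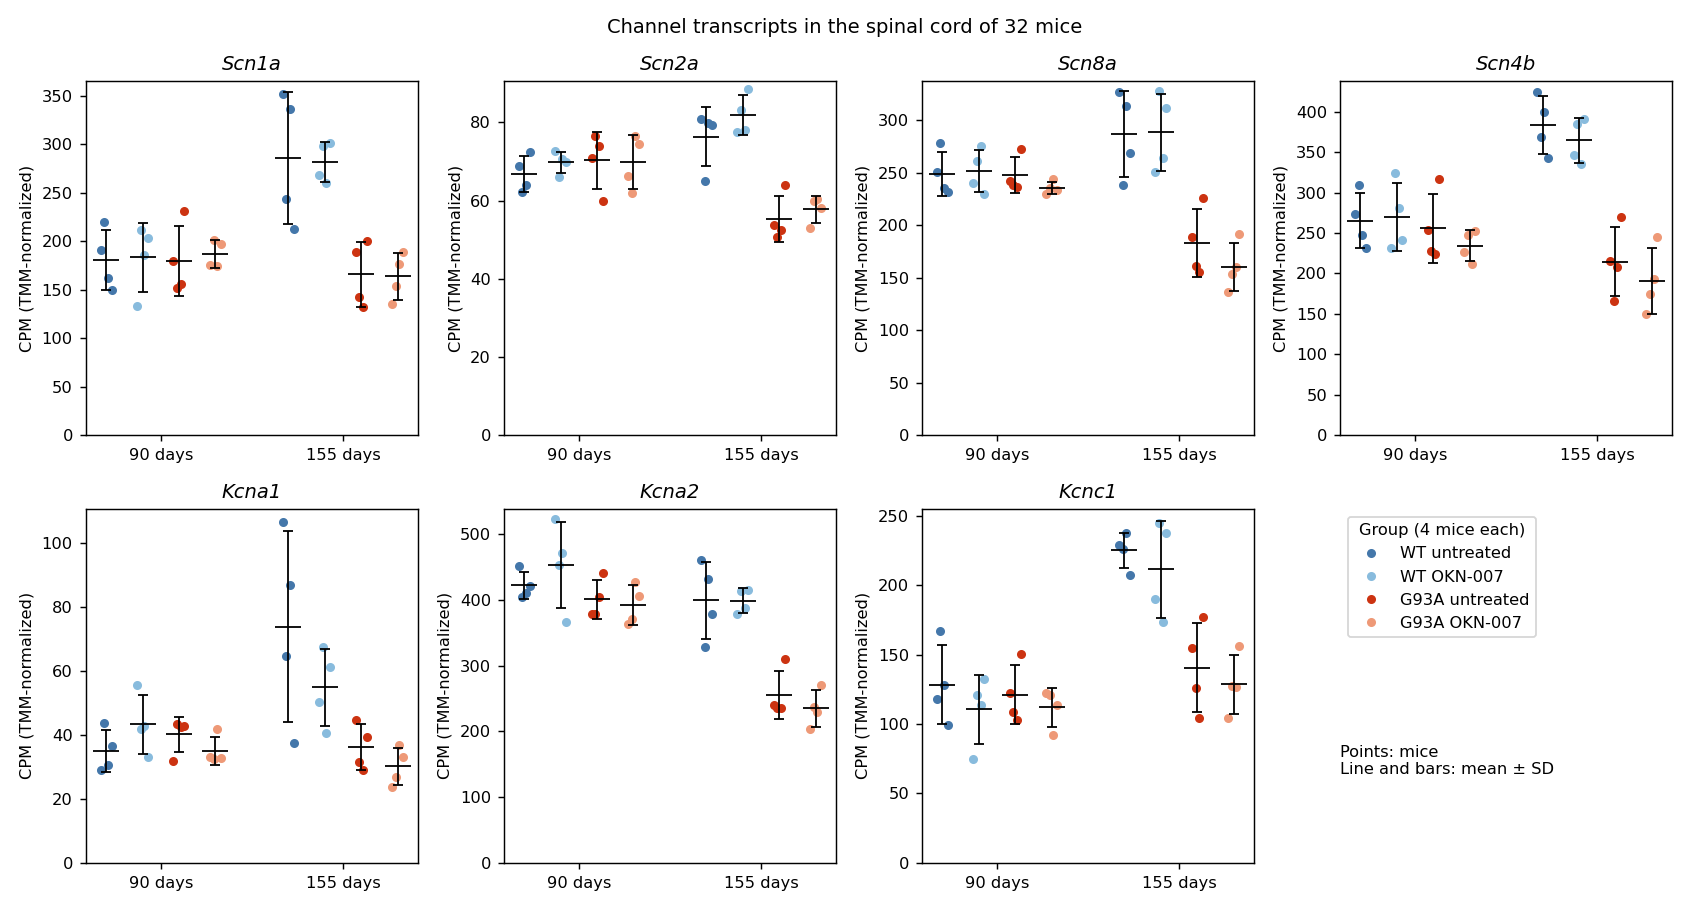
Level of each of the 7 channel transcripts (CPM, TMM-normalized, axes from 0) in every mouse of the 8 groups, with the 90-day groups on the left and the 155-day groups on the right of each panel. Points are mice, and lines with bars are the mean ± SD of 4 mice. At 155 days the G93A mice lie below the WT mice of the same treatment in all panels, apart from an overlap of the untreated groups in Kcna1.

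The count of 7 of 7 lower genes has to be read against the whole table, in which a large part of the genes changed by 155 days. Of the 18675 genes tested in untreated mice, 18.2% were called lower in G93A, and 17.7% were lower with groups that did not overlap, against 6 of the 7 channel genes. In treated mice 18.2% were called lower and 25.2% were lower without overlap, against 7 of 7 on both counts. The median log2 fold change of the 7 channels was -0.63 in untreated mice, while that of all genes tested was 0. Kcna1 stood at the 1.5 percentile of the log2 fold changes of all genes in untreated mice, counted from the largest decrease, and Scn2a, at the other end of the 7, at the 15.3 percentile. Averaged over treatment, which sets 8 G93A against 8 WT mice, all 7 were lower, by between 0.42 (Scn2a) and 0.88 (Kcna1) on the log2 scale, where 25.8% of all genes were called lower.

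At 90 days no channel was called between the genotypes. Over the 16 mice of that age, Scn1a ranged from 133 to 231 CPM, Scn2a from 59.9 to 76.6 CPM, Scn8a from 230 to 278 CPM and Scn4b from 212 to 324 CPM. Kcna1 ranged from 29.1 to 55.6 CPM, Kcna2 from 363 to 523 CPM and Kcnc1 from 75.1 to 167 CPM. In each of the 7 the groups overlapped. By edgeR's quasi-likelihood test 0 of the 7 and 0% of the 18899 genes tested were called in untreated or in treated mice, and DESeq2 called 0 of the 7 as well. At an unadjusted p under 0.05, 0 of the 7 passed in untreated mice, where 5.96% of all genes did. In treated mice Kcna2 alone passed, at a log2 fold change of -0.21 (unadjusted p = 0.0328, adjusted p = 0.9996, edgeR), where 3.95% of all genes did. Averaged over treatment 0 of the 7 were called, where 0.0265% of all genes were, and 0 passed unadjusted, where 6.61% of all genes did.

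The 95% intervals bound what these groups of 4 could have missed at 90 days. In untreated mice the log2 fold change of Scn8a was 0.01, with an interval from -0.13 to 0.16, and that of Scn2a was 0.10, from -0.10 to 0.29. For Kcna1 the interval was wide, from -0.09 to 0.54. Averaged over treatment, the intervals of Scn1a (-0.19 to 0.23) and Kcna2 (-0.27 to 0.00) lay apart from their intervals at 155 days (-0.95 to -0.49 and -0.80 to -0.48).

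**Figure D2:**
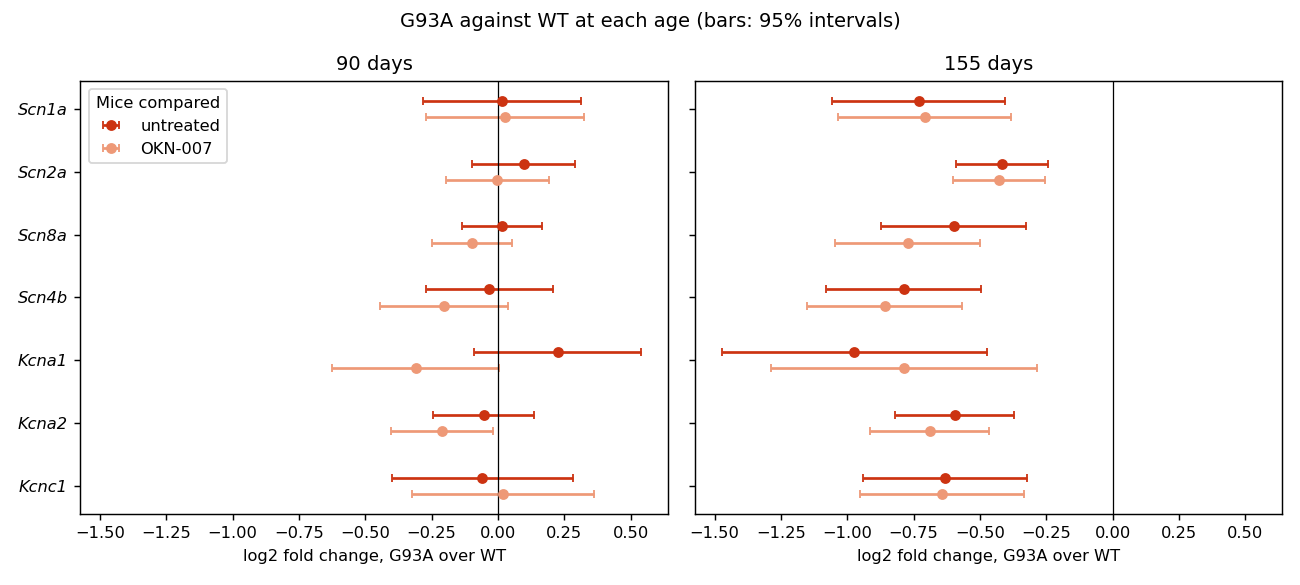
Log2 fold change of G93A over WT for the 7 channel transcripts at 90 days (left) and at 155 days (right), in untreated and in OKN-007 treated mice. Points are estimates of edgeR's quasi-likelihood fit, bars are 95% intervals, and the vertical line marks no difference. At 155 days every interval lies below 0.

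The difference between the ages was tested directly, in a fit of all 32 mice. In untreated mice the G93A change was called more negative at 155 than at 90 days for 6 of the 7 genes, where 8.34% of all 19829 genes were called in that direction. All 7 estimates lay below 0. The difference was largest for Kcna1 (-1.21 on the log2 scale, SE 0.303, adjusted p = 0.00427, edgeR's quasi-likelihood test) and was -0.53 for Scn2a (SE 0.119, adjusted p = 0.00164). For Kcnc1 it was -0.59 and did not pass (SE 0.240, adjusted p = 0.0808), although it did with DESeq2 (adjusted p = 0.0431) and among genes with at least 10 counts in every mouse (0.0470, edgeR). Leaving out single mice moved this call: without G93A replicate 12 of 155 days or WT replicate 2 of 90 days Kcnc1 passed too, and without G93A replicate 12 of 90 days or G93A replicate 11 of 155 days Scn1a no longer did. Averaged over treatment, all 7 passed, at between -0.49 (Scn2a) and -0.86 (Kcna1), where 17.8% of all genes did. In the untreated comparison all 6 caudal Hox genes lay below 0 too (median -1.32, 0 called). Averaged over treatment their median was -1.86, with 2 called lower. Their mean log2(CPM + 1) in untreated mice was 2.77 (WT) and 2.79 (G93A) at 90 days, and 3.41 and 1.73 at 155 days. The level of cord taken and a genotype difference that grows with age cannot be told apart here.

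Each genotype was also followed from 90 to 155 days. In WT mice, averaged over treatment, 6 of the 7 were higher at 155 days, where 24% of all genes were. Kcnc1 rose most, by 0.87 on the log2 scale (SE 0.121, adjusted p = 1.31e-06, edgeR's quasi-likelihood test), from 128 ± 28.4 to 225 ± 12.6 CPM (mean ± SD, n = 4) in untreated mice. Kcna1 rose by 0.71 (SE 0.151, adjusted p = 0.000337), Scn1a by 0.64, Scn4b by 0.48, Scn2a by 0.21 and Scn8a by 0.20 (adjusted p = 0.0377). The call of Scn8a was lost when any 1 of 9 mice was left out (adjusted p up to 0.159) and with DESeq2 (0.0509). Kcna2 was the exception, at -0.13 (adjusted p = 0.139), and was called lower without untreated replicate 1 of 155 days or treated replicate 8 of 90 days. In G93A mice, in a comparison added after the data were examined, 4 of the 7 were lower at 155 days, where 21.1% of all genes were, and 0 were higher, where 27.7% of all genes were.

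In G93A mice the values differed from gene to gene. Kcna2 fell by 0.67 on the log2 scale from 90 to 155 days in G93A mice (SE 0.0725, adjusted p = 4.65e-09, edgeR's quasi-likelihood test), from 401 ± 29.2 to 255 ± 36.5 CPM in untreated mice (mean ± SD, n = 4). Kcnc1 was at 0.23 and did not pass (SE 0.120, adjusted p = 0.108), with 121 ± 21.4 CPM at 90 days and 140 ± 32.05 CPM at 155 days, although without untreated replicate 12 of 90 days or replicate 11 of 155 days it was called higher (0.30 in both cases). Scn8a fell by 0.47, Scn2a by 0.28 and Scn4b by 0.24, and the last of these had an adjusted p of 0.0389, lost when any 1 of 7 mice was left out (adjusted p up to 0.120). Scn1a, at -0.12, and Kcna1, at -0.15, did not pass (adjusted p = 0.390 and 0.425). With libraries scaled to the pan-neuronal genes, the estimates of Scn1a, Scn2a, Scn4b and Kcna1 lay above 0 in this comparison.

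Age is confounded here with whatever was prepared at that age, since the labels name no library or sequencing batch: age and a batch tied to it cannot be told apart. Other genes moved with age in WT mice too: of all 19829 genes tested, 4755 were called higher and 4015 lower at 155 days. All 8 oligodendrocyte genes were lower at 155 than at 90 days in WT (median log2 fold change -0.61), and 3 of 6 caudal Hox genes, which mark lumbar and sacral cord, were higher and 0 lower (median 1.66). Of 9 microglia genes 5 were lower and 0 higher (median -0.41), and of 5 Schwann cell genes 2 were lower and 0 higher (median -1.32). The Schwann cell list spread widely in untreated WT mice at 90 days, where it summed to between 102 and 1676 CPM. It summed to between 111 and 134 CPM in treated WT mice at 90 days. At 155 days it summed to between 82.7 and 98.2 CPM in untreated and between 88.5 and 133 CPM in treated WT mice. Of 7 interneuron transmitter genes 5 were higher and 1 lower (median 0.83), of 17 scaffold genes of initial segments and nodes 13 were higher and 1 lower (median 0.40), and of the 12 pan-neuronal genes 5 were higher and 1 lower (median 0.12). The part of these in the channels' rise in WT was tested for the Hox genes and for the pan-neuronal scale, and not for the other lists. With the mean level of those Hox genes in the fit, Scn2a (0.11, adjusted p = 0.163, edgeR's quasi-likelihood test) and Scn8a (0.16, adjusted p = 0.150) stayed above 0 but were no longer called higher with age in WT. Kcna2 was called lower (-0.21, adjusted p = 0.0318), and Scn1a, Scn4b, Kcna1 and Kcnc1 were still called higher. That Hox level ran from 1.20 to 2.69 in treated WT mice at 90 days and from 3.87 to 4.16 at 155 days. As the ages did not overlap there, this fit cannot fully separate the Hox level from age.

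OKN-007 made no difference to the 7 channels that the test could call. In G93A mice at 155 days, the log2 fold change of treated over untreated ran from -0.26 (Kcna1) to 0.07 (Scn2a), and the treated and untreated groups overlapped for all 7. By edgeR's quasi-likelihood test 0% of genes were called in any of the OKN-007 comparisons or genotype by treatment interactions at either age, and DESeq2 called 0 of the 7. The 95% interval was narrow for Scn2a (-0.10 to 0.24) and wide for Kcna1 (-0.76 to 0.24). Scn8a was at -0.19 (interval from -0.46 to 0.09), so that a further decrease of a size near that between the genotypes lay outside its interval.

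The same comparison in WT mice at 155 days gave between -0.45 (Kcna1) and 0.08 (Scn2a). Kcna1 had a mean of 73.8 CPM in untreated and of 54.8 CPM in treated WT mice, with an unadjusted p of 0.0726 (edgeR's quasi-likelihood test). At an unadjusted p under 0.05, 0 of the 7 passed at 155 days in G93A, in WT or in the interaction, where 4.04%, 2.94% and 2.34% of all genes did. At 90 days, where 5.56% of all genes passed in G93A, 4.07% in WT and 2.81% in the interaction, Kcna1 passed in WT mice and in the interaction.

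For Kcna1 at 90 days, untreated WT mice had 29.1, 43.6, 30.5 and 36.6 CPM and treated WT mice 55.6, 41.7, 42.7 and 33.1 CPM. Untreated G93A mice had 31.8, 43.4, 42.5 and 42.8 CPM and treated G93A mice 32.9, 32.6, 41.7 and 32.6 CPM. The treated mean lay above the untreated one in WT and below it in G93A, with groups that overlapped in both. The log2 fold change was 0.32 in WT (unadjusted p = 0.0472, adjusted p = 0.993, edgeR's quasi-likelihood test), and the interaction was -0.54 (unadjusted p = 0.0207, adjusted p = 0.9999). At 155 days the interaction of Kcna1 was 0.19 (unadjusted p = 0.585).

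Spinal cord tissue holds many cell types, and in such bulk RNA fewer neurons and less RNA per neuron cannot be told apart. The 12 pan-neuronal genes, which are expressed in neurons of most kinds, summed to between 8163 and 8808 CPM in untreated WT mice at 155 days and to between 5221 and 6431 CPM in untreated G93A mice. Of these 12, 11 were called lower (median log2 fold change -0.50), among them Snap25 (-0.66), which docks synaptic vesicles, and Eno2 (-0.65), a neuronal glycolytic enzyme. Of 12 motor neuron genes 11 were lower (median -0.92, Chodl at -2.60, Mmp9 at -1.61), and of 7 interneuron transmitter genes 6 were (median -0.49, Slc17a6 at -0.91, a vesicular glutamate transporter). Glial genes moved the other way, with 9 of 9 microglia genes (median 2.27) and 7 of 8 astrocyte genes (median 0.69) higher, while of 8 oligodendrocyte genes 2 were higher and 0 lower.

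The channels were therefore also compared on the scale of the pan-neuronal genes, by setting each library's scale from their sum. This scale moves the median log2 fold change of all genes to 0.53 in untreated mice at 155 days, and most genes tested were then called. On it, Scn4b was still lower in untreated G93A mice (-0.28, adjusted p = 0.0142, edgeR's quasi-likelihood test) and in treated ones (-0.29, adjusted p = 0.0112). The other 6 did not pass in either: in untreated mice Kcna1 was at -0.46 (adjusted p = 0.0640), Scn1a at -0.22 (0.110), Kcnc1 at -0.13 (0.331), Scn8a at -0.09 (0.428) and Kcna2 at -0.08 (0.420). Scn2a changed sign, to 0.10 (adjusted p = 0.308), as its decrease under TMM scaling was smaller than the shift between the scales. It stayed below the median of all genes. Averaged over treatment, Scn4b (-0.28, adjusted p = 0.000747) and Kcna1 (-0.33, adjusted p = 0.0498) were lower than the neuronal scale and Scn2a was higher (0.13, adjusted p = 0.0477). The difference between the ages, averaged over treatment, passed on this scale for Scn4b alone among the 7 (-0.20, adjusted p = 0.0463). In WT mice, Scn2a and Scn8a were then not called between the ages (adjusted p = 0.299 and 0.174), and Kcna2 was called lower at 155 days (-0.24, adjusted p = 0.00701).

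**Figure D3:**
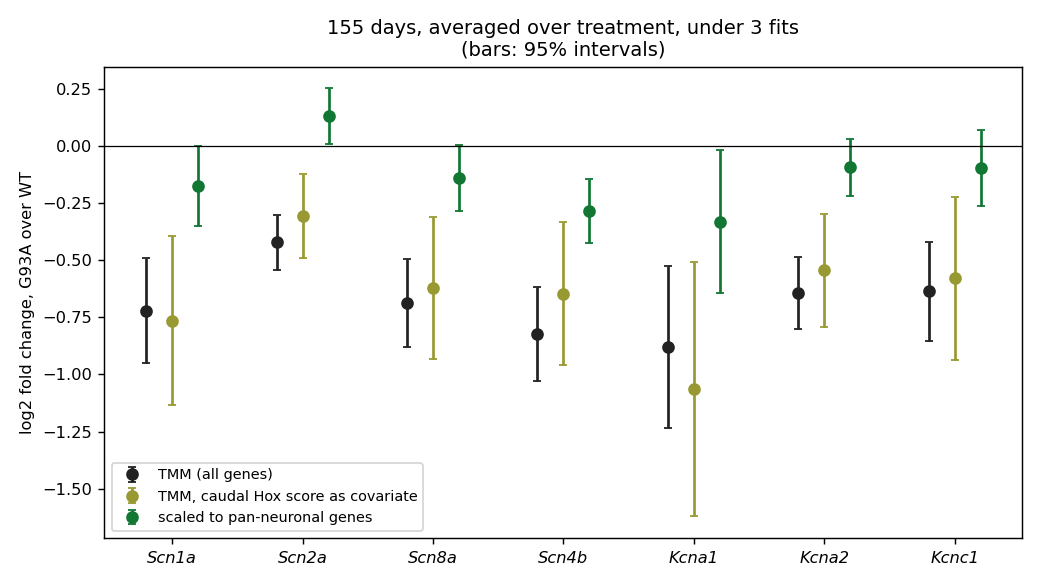
Log2 fold change of G93A over WT at 155 days, averaged over treatment, for the 7 channel transcripts under TMM scaling, under TMM scaling with the caudal Hox score added to the fit, and with libraries scaled to 12 pan-neuronal genes. Points are estimates and bars 95% intervals. On the pan-neuronal scale the estimates move up to between -0.33 and 0.13, Scn2a lies above 0, and Scn1a, Scn8a, Kcna2 and Kcnc1 have intervals that include 0.

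The level of the caudal Hox genes differed between the groups, and 2 of the 6 were called lower in untreated G93A mice at 155 days, Hoxc11 (-2.77) and Hoxd11 (-2.50). In treated mice 5 of the 6 were called lower (median log2 fold change -1.95, against -1.40 in untreated mice), and averaged over treatment all 6 were (median -1.78). Their score, the mean of log2(CPM + 1) over 6 genes, ranged from 2.95 to 4.16 in untreated WT mice at 155 days and from 0.56 to 2.99 in untreated G93A mice, and from 3.87 to 4.16 and from 1.26 to 2.96 in the treated mice. With this score as a covariate all 7 channels were still called lower at 155 days in both treatments. The scores of the genotypes barely overlapped in untreated mice (WT from 2.95, G93A up to 2.99) and did not overlap in treated mice. This fit therefore cannot separate the level of cord from the genotype. In untreated mice the log2 fold changes then ran from -1.15 for Kcna1 (adjusted p = 0.00979) and -0.77 for Scn1a to -0.50 for Kcna2 and -0.30 for Scn2a (adjusted p = 0.0339, edgeR's quasi-likelihood test). Genes of dorsal root ganglia and muscle, which carry sodium channels of their own, were near absent: Scn10a, Scn11a and Scn4a did not reach the level needed for a test, and the summed level of the 8 sensory genes lay between 1.74 and 5.62 CPM in any 155-day mouse. Of the 3 sensory genes tested 1 was higher in untreated G93A mice, Avil (2.92), of 5 Schwann cell genes 2 were, Egr2 (4.48) and Pmp22 (0.35), and of 3 muscle genes 0 were called.

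The relatives of the 7 channels were taken from lists by gene family and are given under TMM scaling alone. Other alpha subunits of sodium channels moved as follows: of 7, 4 were tested at 155 days in untreated mice and 3 were lower, Scn7a (-0.76, adjusted p = 0.0187, edgeR's quasi-likelihood test), Scn3a (-0.44, adjusted p = 0.00795), the fetal form, and Scn9a (-0.40, adjusted p = 0.0352). Scn7a was low throughout, at between 1.32 and 3.89 CPM in these mice. In treated mice 0 of these 4 passed, but no gene passed the interaction of genotype and treatment. The beta subunit genes Scn2b (-0.58) and Scn3b (-0.33) were lower in untreated mice too.

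Among the relatives of Kcna1 and Kcna2, 7 of 9 were tested and 4 were lower in untreated G93A mice at 155 days. Of these, 3 encode the cytoplasmic beta subunits of Kv1 channels, Kcnab2 (-0.76), Kcnab1 (-0.69) and Kcnab3 (-0.46), and the other was the alpha subunit Kcna4 (-0.57). Kcna6 was at 0.00 (adjusted p = 0.975), and Kcna3 and Kcna5 did not pass either. The Kv3 genes Kcnc4 (-0.84) and Kcnc2 (-0.64) were lower as well.

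Of 11 genes for Kv2, silent Kv and Kv7 subunits 8 were lower, led by Kcns3 (-0.99), Kcng4 (-0.83) and Kcnv1 (-0.79). Kcns1, a silent subunit that forms no channel alone and modifies Kv2 channels, went the other way. It had 9.24, 11.7, 10.3 and 9.12 CPM in untreated WT mice at 155 days and 29.4, 41.2, 27.7 and 34.4 CPM in untreated G93A mice. Kcns1 was thus higher in every G93A mouse, by 1.76 on the log2 scale (adjusted p = 9.51e-10, edgeR's quasi-likelihood test). It was the only one of the tested sodium and potassium channel genes in these lists that was called higher, where 21.3% of all genes were. Of 9 genes for Kv4 channels and their partners 7 were lower, among them Dpp10 (-0.72), Kcnip1 (-0.58), Kcnip4 (-0.58) and Kcnd3 (-0.40).

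Of 17 genes for the scaffold that holds these channels at initial segments, nodes and the adjoining membrane, 11 were lower and 2 higher in untreated G93A mice at 155 days. Lower were Adam23 (-0.76), Fgf12 (-0.71) and Fgf14 (-0.68), the latter a pair of intracellular factors that bind sodium channels, and Ank3 (-0.38), which encodes ankyrin-G, the organizer of the initial segment. The adhesion molecules Nrcam (0.61, adjusted p = 9.47e-05, edgeR's quasi-likelihood test) and Nfasc (0.43, adjusted p = 0.000815) were higher. Nrcam had 152, 124, 154 and 125 CPM in untreated WT mice and 170, 213, 244 and 191 CPM in untreated G93A mice. Glial cells make both of these adhesion molecules too.

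**Figure D4:**
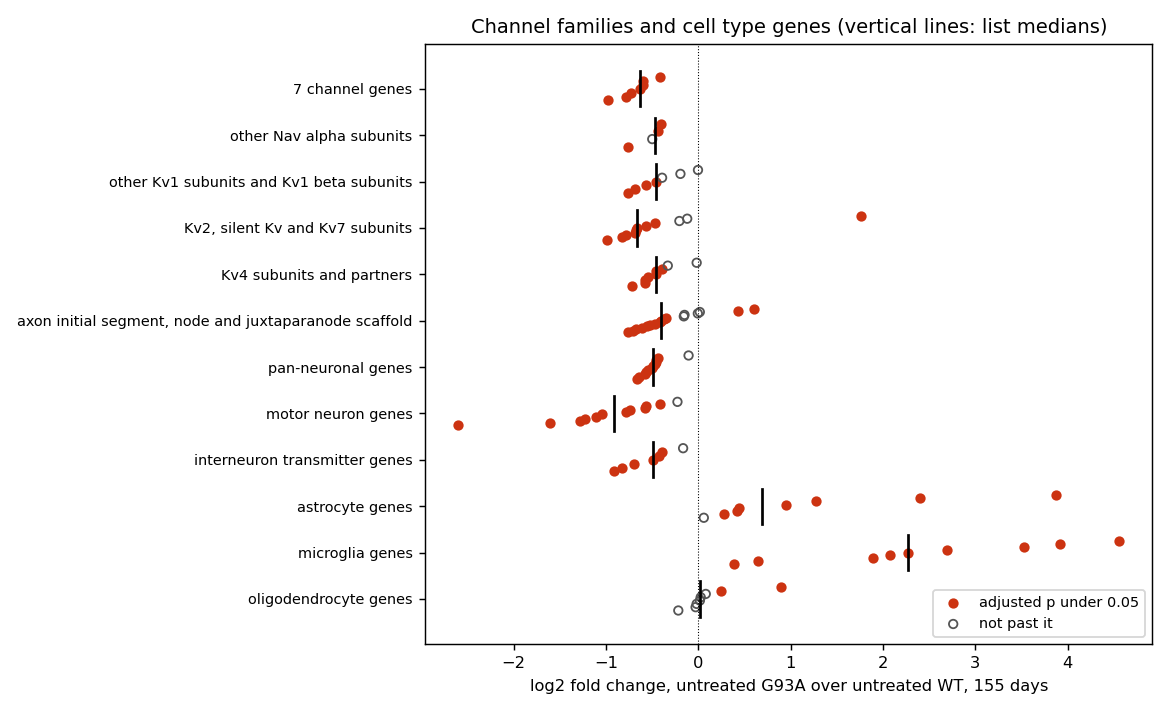
Log2 fold change of untreated G93A over untreated WT mice at 155 days for the 7 channel genes, for 4 lists of related channels and 1 of their scaffold, and for genes of neurons and glia. Each point is a tested gene, filled where its adjusted p was under 0.05, and vertical lines are the medians of the lists. The medians of these 5 lists lie between -0.66 and -0.40, beside -0.50 for the pan-neuronal genes, and Kcns1 stands apart at 1.76. The Kv3 genes Kcnc4 (-0.84) and Kcnc2 (-0.64) and the beta subunit genes are not drawn.

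Levels of different genes can be compared only per length, for which CPM was divided by the kilobases of exon in the annotation (from 4.78 for Kcna1 to 15.8 for Scn8a). On this scale Scn4b was the highest and Scn2a the lowest of the 7 in all 8 groups. In untreated WT mice at 155 days the order was Scn4b (77.0 ± 7.19 CPM per kilobase), Kcna2 (33.5 ± 4.90), Scn1a (25.7 ± 6.12), Kcnc1 (23.8 ± 1.33), Scn8a (18.2 ± 2.59), Kcna1 (15.4 ± 6.22) and Scn2a (5.99 ± 0.592). Kcna2 and Scn1a, Scn1a and Kcnc1, and Scn8a and Kcna1 had ranges that overlapped. In untreated G93A mice at 155 days the order was the same, from 43.1 ± 8.64 for Scn4b to 4.34 ± 0.465 CPM per kilobase for Scn2a, and there Scn1a and Kcnc1, and Kcnc1 and Scn8a, had ranges that overlapped. The lengths are those of GENCODE M21, which may differ from the annotation the reads were counted on.

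Between mice of the same group the 7 did not vary as one block. With group means subtracted, the log2 levels of Scn1a and Kcnc1 had a Pearson correlation of 0.83 over 32 mice, Scn1a and Scn4b one of 0.81, and Scn8a and Scn4b one of 0.80. Scn2a ran apart from these, with -0.01 against Scn1a and -0.12 against Kcnc1. These are descriptions, since the points share libraries, their scaling and the piece of cord that was taken. Of 19829 genes, a pattern among those most like that of Kcnc1 was found in Dnm1 (0.97), and the one most like Scn1a in Chrm2 and Cdk14 (both 0.96). Scn4b was nearest to Nat8l and Nxpe3 (both 0.93), Scn8a to Luzp1 (0.90) and Atp2b2 (0.89), and Kcna2 to Map7d2 and Pgm2l1 (both 0.86). The nearest genes were less close for Kcna1 (Gm26782, 0.81, and Kif21a, 0.75) and for Scn2a (Srrm3, 0.75, and Trerf1, 0.72).

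The proportions between members within a mouse were tested for 4 pairs (Scn2a to Scn1a, Scn2a to Scn8a, Scn4b to Scn8a and Kcna1 to Kcna2), at both ages and in both treatments, by 16 exact permutation tests of G93A against WT. None passed after adjustment, which this design came close to fixing, since at least 10 of the 16 would have had to reach the smallest p that 4 mice against 4 allow. That p, 0.0286, was reached once, for Scn2a to Scn1a in treated mice at 155 days, where the log2 ratio was higher by 0.29 in G93A (adjusted p = 0.457, exact permutation test, two-sided).

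The starts of the genes are of different kinds. RefSeq's table of start regions (GRCm38.p6, 250 bases before and 50 after each start) held 8 windows of 6 of the 7 genes. A pair of them, both upstream parts of 250 bases on the plus strand, is shown because the first is the richest in CpG and in GC boxes and the second is the only one with a TATA motif: Kcnc1, at chr7:46396218-46396467, with 3 GC boxes (GGGCGG, or CCGCCC on the other strand), and the second start of Scn2a, inside that gene at chr2:65668436-65668685, with a TATAAA. Capitals mark these motifs.
Kcnc1: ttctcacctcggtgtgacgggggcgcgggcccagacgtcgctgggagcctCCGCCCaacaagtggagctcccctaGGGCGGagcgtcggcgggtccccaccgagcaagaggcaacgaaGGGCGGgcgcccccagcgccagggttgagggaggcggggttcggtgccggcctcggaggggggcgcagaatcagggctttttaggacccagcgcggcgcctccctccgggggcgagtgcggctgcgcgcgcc
Scn2a: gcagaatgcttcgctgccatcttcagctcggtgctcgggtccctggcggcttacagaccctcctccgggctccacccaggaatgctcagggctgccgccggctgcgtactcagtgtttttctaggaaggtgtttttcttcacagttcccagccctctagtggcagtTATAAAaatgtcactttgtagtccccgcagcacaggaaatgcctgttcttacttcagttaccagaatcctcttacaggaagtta

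The whole windows of Kcnc1, Scn8a (first start), Kcna2 and Scn4b were rich in CpG, with 41, 38, 31 and 26 CpG dinucleotides, against a median of 7 over all 32851 windows of the table. The window of Scn1a held 5, those of Scn2a held 3 and 9, and that of the second start of Scn8a held 12. A GC box was in 35.7% of all windows and in 2 of the 8 here, Kcnc1 and Kcna2, and TATAAA was in 13.6% and in 1 of the 8. A CRE (TGACGTCA, 1.79% of all windows), an E-box (CACGTG, 7.15%) and the left part of the REST element (TTCAGCACC, 0.371%) were in 0 of the 8.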

How the data were processed

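Spinal cord samples of 25 mg were extracted with TRIzol and made into stranded mRNA libraries (TruSeq). The authors deposited raw counts per gene, not normalized, as whole numbers for 32 mice. The study's methods name Trimmomatic, STAR on GRCm38, HTSeq and GENCODE M10, while the submitters' processing notes list STAR, featureCounts, edgeR and the builds GRCm39, mm39 and hg38. The table holds 1306 gene IDs above the highest of GENCODE M21, so a newer annotation was used. Symbols, positions and exon lengths were taken from GENCODE M21 (41203 of 42524 IDs paired).

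The 16 mice of each age were fitted together as 4 groups in R 4.3.3 with edgeR 4.0.16 (filterByExpr, TMM, glmQLFit, glmQLFTest, no covariates), on 18899 genes at 90 days and 18675 at 155 days, and all 32 mice for comparisons between ages (19829 genes). Standard errors came from the F statistic and 95% intervals from them and the fit's degrees of freedom. CPM were TMM-scaled over 32 mice. In the smallest library 3 counts were worth 0.152 CPM, a limit for counting error only. No 2 libraries of a group were identical. Columns belonging to no sample numbered 0. The fit was tested on simulated data.

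Other settings tried were RLE factors, edgeR's likelihood ratio test, DESeq2 1.42.0, scaling to pan-neuronal genes, no filter or at least 10 counts in every mouse, a caudal Hox covariate, only the compared groups, 1 fit of 32 mice, a replicate block and leaving out each mouse. The members and the 18 gene lists were chosen with earlier results of these data known. Named beside the members were, from each list, up to 3 called genes with the largest and up to 3 with the smallest log2 fold change in untreated mice at 155 days, a few fixed paralogs, and the 2 genes most correlated with each member. Kcna3, Kcna5, Kcna6 and the genes given as not tested were named to complete a list after their values were seen. Some genes that this rule names, and the short lists they belong to, are not reported here. The labels name no batch. The labels number 4 samples per group without naming animals, so p-values measure the spread between these samples.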

Additional observations from a re-analysis of the deposited data

Results flagged for a closer look

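In 5 cases a single mouse stood far from the other 3 of their group, where 2.8 of the 56 groups checked (7 genes in 8 groups) would do so by chance. Scn2a was 65.0 CPM in untreated WT replicate 2 at 155 days, with the next mouse at 79.5 CPM, and Kcna2 was 310 CPM in untreated G93A replicate 12 at 155 days, with the next at 241 CPM. The other 3 were at 90 days. Scn8a was 273 CPM in untreated G93A replicate 12 (next 242 CPM). Kcna1 was 31.8 CPM in untreated G93A replicate 9 (next 42.5 CPM) and 41.7 CPM in OKN-007 treated G93A replicate 15 (next 32.9 CPM). Leaving out any of the mice left all 7 genes lower in G93A at 155 days in the untreated, the treated and the averaged comparison.

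The G93A change differed between the ages by a test of the difference itself (edgeR's quasi-likelihood test over 32 mice). The level of cord taken cannot be told apart from this difference. In untreated mice the change at 155 days minus that at 90 days was -0.76 for Scn1a, -0.53 for Scn2a, -0.63 for Scn8a, -0.77 for Scn4b, -1.21 for Kcna1 and -0.56 for Kcna2 on the log2 scale. Averaged over treatment it was -0.76 for Scn1a, -0.49 for Scn2a, -0.67 for Scn8a, -0.73 for Scn4b, -0.86 for Kcna1, -0.53 for Kcna2 and -0.64 for Kcnc1.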

How the results depend on the processing

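Counts of called channels took both directions together, so a call that changed direction did not move them. Scaling to the pan-neuronal genes was the only alternative, mice left out aside, that moved such a count by over 1.5 times. At 155 days 1 of the 7 remained called in untreated mice, 1 in treated mice and 3 averaged over treatment. Of the differences between ages 0 remained in untreated mice and 1 averaged. This scaling reversed Scn2a at 155 days (0.10 untreated, 0.16 treated, 0.13 averaged) and, in the difference between ages averaged over treatment, Scn2a (0.052) and Kcna2 (0.012). In G93A from 90 to 155 days it reversed Scn1a (0.31), Scn2a (0.15), Scn4b (0.19) and Kcna1 (0.28). Of these, Scn2a and Scn4b had been called lower under TMM scaling. For OKN-007 the pan-neuronal scale reversed Kcna2 in G93A at 90 days (0.0014, or 0.012 with the Hox covariate) and in WT at 155 days (0.011). By its construction this scale sets the neuronal genes level, and all other genes rise: 12412 genes were called in untreated mice at 155 days, against 7378. Leaving out single mice left 7 of 7 at 155 days, 5 to 7 for the untreated difference between ages and 7 for the averaged one, 5 to 6 for age in WT, 3 to 4 for age in G93A, and 0 for all other comparisons. Of the comparisons without a called channel, Kcna1 and Kcna2 were followed one by one: leaving out single mice reversed Kcna1 averaged over treatment at 90 days (-0.096 to 0.028), Kcna2 for OKN-007 in WT at 155 days (-0.074 to 0.051), and the 155-day interactions of Kcna1 (-0.040 to 0.38) and Kcna2 (-0.17 to 0.015), none of which was called. Of the 45 estimates of the other 5 genes in these 9 comparisons, 24 changed sign without some mouse (at most 0.124 in size) and 10 under another setting, and 0 gained a call. Among the values of single genes followed one by one, under the settings other than leaving out mice, 566 were unchanged, 33 lost their call and 7 gained one. The 566 include the mean CPM of each gene in each group, which moved by less than its SD without TMM factors and has no call. The rest of the 566 kept their direction and side of the threshold. The sample numbers recur at both ages in different mice, and 4 of 16 same-numbered pairs deviated together (correlation above 0.1, median -0.07), so they were not treated as pairs. With the number as a replicate block, 7 of 7 differed between ages in untreated mice and 7 of 7 averaged, and 6 rose with age in WT.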
